A study of Mus musculus with 2 samples.

Results

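Coenzyme Q, heme, iron-sulfur clusters and lipoic acid are the cofactors that carry electrons or acyl groups in mitochondria, and 41 genes of their synthesis were followed in gastrocnemius muscle lacking PGC-1β. The genes were chosen by function and matched by symbol to the annotation of the array. The rule set no threshold on their values, but earlier results of these data were known when they were chosen. Of the 41, 38 had a probe set of their own, among 19936 named nuclear genes measured. The signals of Pdss1 and Fdxr were not analysed here. Fdx1l (Fdx2) was measured only by a probe set shared with another gene model, and is left out of the counts of signals. All 3 entered the search of promoters.

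The data come from 2 Affymetrix arrays, 1 per genotype, each hybridized with RNA of 3 pooled C57BL/6 mice. Both groups were male littermates of 8 weeks, homozygous for floxed PGC-1β alleles and injected with 1 mg tamoxifen per day for 5 days from 7 weeks of age, so that RNA was taken about 1 week after the last dose. The mutants, called PGC-1β(i)skm-/-, also carried a Cre-ERT2 transgene driven by the human skeletal actin promoter, which acts in myofibres. The controls, labelled wild-type, lacked the transgene, so that its effect and that of the deletion cannot be told apart. With 1 array per genotype there is no replicate error and no test was made; differences are described by their size and set beside those of all genes. Values are log2 signals on an RMA scale, differences are mutant minus control on the log2 scale, and the ratio is the mutant over the control signal.

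Coenzyme Q, or ubiquinone, shuttles electrons from complexes I and II and from other dehydrogenases to complex III. It is built in the mitochondrial inner membrane from a polyprenyl tail and a ring that a complex of COQ proteins modifies. Heme synthesis starts and ends in mitochondria, with intermediate steps in the cytosol. Iron-sulfur clusters are assembled on the ISCU scaffold in mitochondria and passed on by carriers, while a separate cytosolic machinery serves cytosolic and nuclear proteins. Lipoate, which lipoyl synthase makes with sulfur from its own clusters, is attached to the 2-oxoacid dehydrogenases and to the glycine cleavage system. Muscle needs all of them for oxidative phosphorylation.

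The targeted gene, Ppargc1b, went from a log2 signal of 7.87 in the controls to 7.06 in the mutants, a ratio of 0.569. Only 1 exon is deleted and the place of the probes relative to it was not examined, so that this is a partial check of the labels. Over all 35556 probe sets the arrays had median log2 signals of 6.00 (control) and 6.02 (mutant). The 12 skeletal muscle markers listed spanned log2 signals of 12.81 to 13.88 in control and 12.71 to 13.91 in mutant muscle. Their median difference was 0.01, with 8 above 0, among them Acta1, Ckm and Myh4, and 4 below 0. The lowest was Myh1, at -0.16. All 10 connective tissue markers measured were higher on the mutant array, 3 of them (Fmod, Tnmd and Thbs4) at a ratio of 1.2 or more, which 1.64% of all genes reached, with a median of 0.20, a range of 8.27 to 12.48 in control and 8.55 to 12.63 in mutant muscle, and mean log2 signals of 9.71 and 9.91. Of 12 macrophage markers, 11 were higher, 5 of them (C1qa, C1qb, C1qc, Csf1r and Mrc1) at that ratio, with a median of 0.20, ranges of 5.45 to 9.01 and 5.54 to 9.26, and mean log2 signals of 6.74 and 6.93. Their part in the differences given here was not tested, and fewer cells of a type and less RNA per cell cannot be told apart in whole muscle.

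Nearly all cofactor genes gave less signal without PGC-1β, each by a small amount. Of the 38 genes, 35 had a difference below 0, against 50.2% of all genes, and the median difference was -0.11, which is a signal lower by 7.43%. The median of all genes was -0.0006. No cofactor gene reached a ratio of 0.8 or less, which 0.652% of all genes did, and none a ratio of 1.2 or more, which 1.64% did. At a ratio of 1/1.2 or less there were 3, Coq5, Pdss2 and Uros, against 1.69% of all genes. Of the 38, 28 lay under the lower quartile of all genes, at -0.07, where 25% of all genes lie by definition, and 1, Nubp1, lay over the upper quartile. The differences ranged from -0.31 for Coq5 to 0.10 for Nubp1. The other genes not below 0 were Hscb and Lipt1.

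**Figure D1:**
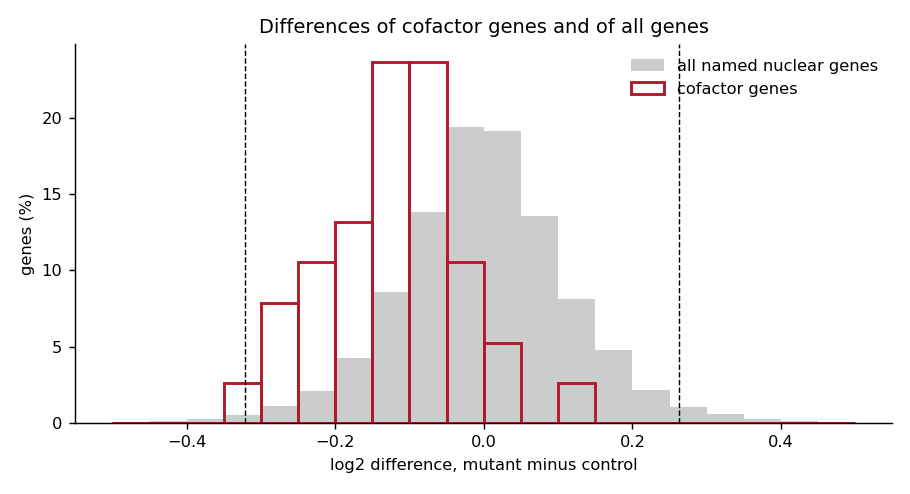
The share of genes in percent (vertical axis) is plotted by log2 difference, mutant minus control (horizontal axis), for all 19936 named nuclear genes (grey) and the 38 cofactor genes (red outline), with dashed lines at ratios of 0.8 and 1.2. The cofactor genes lie to the left of all genes, between the dashed lines, with a median of -0.11.

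The cofactor genes are mostly well expressed, and bright genes as a whole leaned slightly downward. Among the 8205 genes with a mean log2 signal of 7 or more, 56.4% were below 0 and the median was -0.01. Of the 33 cofactor genes in that range, 32 were below 0. Among these bright genes 0.792% reached a ratio of 0.8, 1.79% a ratio of 1/1.2 and 0.817% a ratio of 1.2, and 27.4% lay under the lower quartile of all genes. The 3 cofactor genes at a ratio of 1/1.2 or less were all in this range. The 19 brighter cofactor genes had a median difference of -0.14 and were all below 0. The 19 dimmer ones had a median of -0.10, with 16 below 0.

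**Figure D2:**
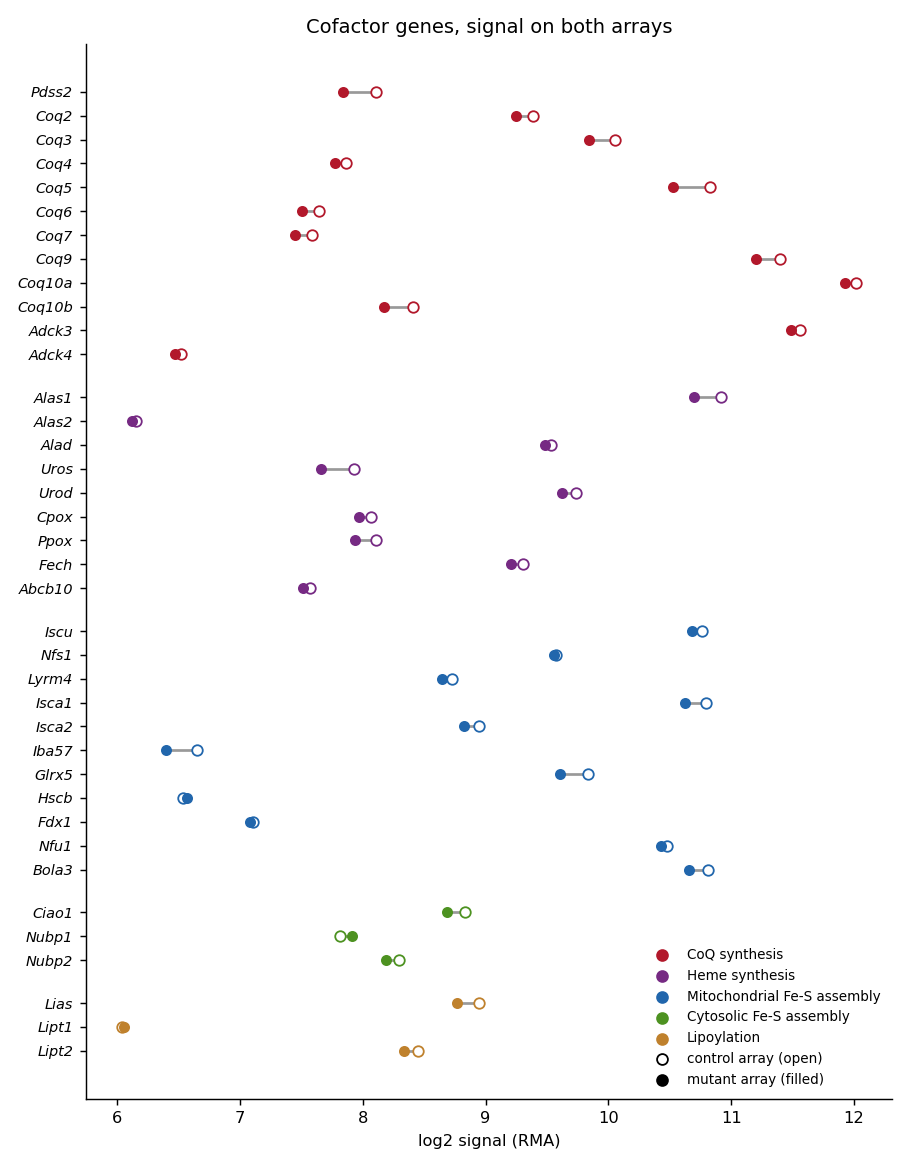
Each row is 1 gene, with its log2 signal (horizontal axis) on the control array (open) and the mutant array (filled), coloured by pathway. The filled point lies to the left of the open one for 35 of 38 genes, and to the right for Hscb, Nubp1 and Lipt1.

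The promoters of the cofactor genes were then searched for the letters of the factors through which PGC-1 coactivators are known to act. Windows of 300 bases, 250 before and 50 after the start of transcription, were taken from RefSeq (GRCm38.p6) for 36 of the 41 genes, Coq5, Adck4, Fech, Iscu and Hscb having no entry. Both strands were searched. Genes with several annotated starts could have several windows, and a gene was counted if any of its windows held a match. The number of windows per gene was not compared. The letters CCGGAAG, read by GABPA (NRF-2), were found for 12 of 36 genes (33.3%). They were found for 9.93% of all 27025 genes with a window and 13.8% of the 15005 protein-coding genes measured. The letters CGCNTGCGC, read by NRF-1, were found for 8 genes (22.2%), against 7.03% and 10.7%. The letters AAGGTCA, the core read by estrogen-related receptors (ERRs), were found for 5 genes (13.9%), against 5.38% and 4.41%. Their extension TNAAGGTCA, which contains the core, was found only for Alas2, against 1.43% and 1.11%. No share was computed for genes of like signal, so that the part of signal in these shares was not tested. These matches are descriptions of letters and not of binding.

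Stretches of 6 windows are shown, 5′ to 3′ on the strand of the gene, with the matched letters in capitals on either strand. Isca1 is the gene whose window held all 3 kinds of match, Uros and Pdss2 are among the most lowered genes, Alas1 encodes the first step of heme synthesis, and Lipt1 and Nubp1 hold matches without a lower signal. They lie at chr13:59769790-59770039 (minus strand), chr7:133709296-133709375 (minus), chr10:43221336-43221395 (plus), chr9:106247905-106247934 (minus), chr1:37872313-37872342 (plus) and chr16:10411828-10411887 (plus), in this order.
Isca1: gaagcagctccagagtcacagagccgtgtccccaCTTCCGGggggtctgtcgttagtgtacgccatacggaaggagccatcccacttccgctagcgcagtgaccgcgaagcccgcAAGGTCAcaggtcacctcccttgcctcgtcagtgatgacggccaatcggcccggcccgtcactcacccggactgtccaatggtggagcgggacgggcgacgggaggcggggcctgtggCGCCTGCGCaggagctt
Uros: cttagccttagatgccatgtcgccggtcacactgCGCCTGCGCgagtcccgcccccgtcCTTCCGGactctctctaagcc
Pdss2: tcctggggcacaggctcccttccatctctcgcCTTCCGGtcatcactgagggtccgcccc
Alas1: gcacccaagGCGCATGCGCggcggtcactc
Lipt1: CCGGAAGtggcaggtgagtgaagCCGGAAG
Nubp1: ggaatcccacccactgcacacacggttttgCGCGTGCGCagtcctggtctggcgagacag

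In Isca1 the GABPA letters began 216 bases, the ERR letters 135 bases and the NRF-1 letters 17 bases before the start. In Uros the NRF-1 letters began 46 and the GABPA letters 21 bases before it. In Alas1 the NRF-1 letters overlap with those of the other strand, and lie before the start of 1 annotated transcript and after that of another. The differences with and without a match were as follows. The 9 measured genes with GABPA letters had a median of -0.14 (8 below 0), and the 24 without, -0.11 (23 below 0). The 8 with NRF-1 letters had a median of -0.12, and the 25 without, -0.13. The 4 with ERR letters had a median of -0.12, and the 29 without, -0.13. Alas2, the 1 gene with the extended ERR letters, was at -0.04, and the 32 without had a median of -0.13.

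All 12 measured genes of coenzyme Q synthesis had a lower signal in the mutants, with a median difference of -0.14, or 9.07% lower. Coq5, the C-methyltransferase of the ring, had log2 signals of 10.83 in control and 10.52 in mutant muscle. At -0.31 and a ratio of 0.808 it was the most lowered of the 38 genes, at rank 169 of 19936. Pdss2, a subunit of the polyprenyl diphosphate synthase, had 8.11 and 7.84, a difference of -0.27. Coq3, the O-methyltransferase, had 10.06 and 9.84, a difference of -0.21.

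Coq2, which joins tail and ring, had log2 signals of 9.38 and 9.25. The hydroxylases Coq6 and Coq7 had 7.64 and 7.51, and 7.58 and 7.45. All 3 had a difference of -0.14. The ring enzymes Coq3, Coq5, Coq6 and Coq7 together had a median of -0.17, and Pdss2 and Coq2 together -0.20.

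The 6 accessory proteins had a median of -0.09, all below 0. Coq10b, one of a pair of proteins with a lipid-binding fold needed for coenzyme Q function, was the most lowered, with 8.41 and 8.17, a difference of -0.24. Coq9, a lipid-binding partner of Coq7, had 11.40 and 11.20, a difference of -0.19. Coq4, an organizer of the complex, had 7.86 and 7.77. Coq10a had 12.02 and 11.93, and each of its 2 probe sets gave -0.09. The kinase-like Adck3 (Coq8a) and Adck4 (Coq8b) had 11.56 and 11.49, and 6.52 and 6.47, with differences of -0.07 and -0.05.

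All 9 genes of the heme pathway had a lower signal, with a median of -0.10, or 6.97% lower. Alas1, the housekeeping 5-aminolevulinate synthase and rate-limiting enzyme of the pathway, had log2 signals of 10.91 in control and 10.69 in mutant muscle, a ratio of 0.859. Uros, the uroporphyrinogen III synthase of the cytosol, had 7.93 and 7.66, a ratio of 0.832, and was the most lowered heme gene. Ppox, the penultimate enzyme, in the mitochondrial intermembrane space, had 8.10 and 7.94, a difference of -0.17. These 3 genes were 11.1% to 16.8% lower and the other 6 were 2.73% to 7.31% lower.

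Of these, Urod had log2 signals of 9.73 and 9.62 and a difference of -0.11, and Cpox 8.07 and 7.96 and a difference of -0.10. Fech, which inserts iron into protoporphyrin, had 9.30 and 9.21 and a difference of -0.10. Alad had 9.53 and 9.48, and Abcb10, an inner membrane transporter that takes part in heme synthesis, 7.57 and 7.51, with differences of -0.05 and -0.06. Alas2, the erythroid isoform of the first enzyme, had 6.15 and 6.11, near the median signal of the arrays, and a difference of -0.04. The 5 erythroid markers measured had control signals of 4.10 to 6.15 and mutant signals of 4.25 to 6.01, with 4 of 5 higher in the mutants.

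The 3 cytosolic steps, Alad, Uros and Urod, had a median of -0.11, and the 6 mitochondrial genes a median of -0.10. The difference between these medians was 0.01. Single genes ran from -0.26 to -0.05 in the cytosol and from -0.22 to -0.04 in mitochondria.

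For mitochondrial iron-sulfur assembly, 10 of 11 measured genes had a lower signal, with a median of -0.08. The 6 carriers and late factors, which hand clusters on to their recipients, were all below 0, with a median of -0.16. The 5 measured genes of the core machinery and its electron supply had a median of -0.03, with 4 below 0. Their mean control log2 signal was 8.54, against 9.59 for the carriers and late factors. The part of signal in this contrast was not tested.

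Among the carriers, Glrx5, the monothiol glutaredoxin that takes clusters from the scaffold, had log2 signals of 9.83 and 9.61, a difference of -0.23. Iba57, which works with the ISCA proteins, had 6.65 and 6.39, a difference of -0.26. Its other probe set, at a signal of 4.45 in control, gave 0.03, so that the mean of both was -0.11. Isca1 had 10.79 and 10.63 and Isca2 8.95 and 8.82, with differences of -0.17 and -0.13. Bola3, needed for lipoate synthesis and for complexes I and II, had 10.81 and 10.66, a difference of -0.16. Nfu1, a late carrier of the same branch, had 10.48 and 10.43, a difference of -0.05.

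In the core machinery, Nfs1, the cysteine desulfurase, had log2 signals of 9.57 and 9.55, and Lyrm4 (ISD11), its stabilizing partner, 8.73 and 8.65, with differences of -0.02 and -0.08. Fdx1, a ferredoxin that donates electrons, had 7.11 and 7.08, and Hscb, the co-chaperone that releases the cluster, 6.54 and 6.57, a difference of 0.03. Iscu, the scaffold, was measured by 2 probe sets of nearly equal signal that differed. The brighter one had 10.76 and 10.69, a difference of -0.07, and the other 10.59 and 10.37, a difference of -0.22. By number, the brighter one stands among probe sets of genes on chromosome 19 (20 of its 20 nearest), and the other among those of chromosome 5 (19 of 20), where Iscu lies. With the latter, the median of mitochondrial assembly was -0.13, while that of the core genes stayed at -0.03. The shared probe set of Fdx1l had 11.01 and 10.98, a difference of -0.03.

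In the cytosolic machinery, Ciao1, of the complex that targets clusters to their recipients, had log2 signals of 8.83 and 8.68, a difference of -0.15. The scaffold proteins Nubp1 and Nubp2, which form a complex, lay on opposite sides, with 7.81 and 7.91 (0.10) for Nubp1 and 8.30 and 8.19 (-0.11) for Nubp2. The median of the 3 was -0.11. Mitochondrial minus cytosolic assembly was 0.03 as a difference of medians, and -0.02 with the chromosome 5 probe set of Iscu, so that its sign depends on which probe set is taken.

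Lias, the lipoyl synthase, had log2 signals of 8.94 and 8.77, a difference of -0.17. Lipt2, the transferase that starts lipoylation by moving octanoate, had 8.45 and 8.33, a difference of -0.11. Lipt1, which passes lipoate on to the dehydrogenases, had 6.04 and 6.05, a difference of 0.01, and was the dimmest of the 38 probe sets used. Its sign was negative (-0.01) once a curve of the difference on the signal had been subtracted.

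The medians of the pathways lay between -0.14 (coenzyme Q) and -0.08 (mitochondrial iron-sulfur assembly), and their ranges overlapped. Over all pathways, the 32 genes of mitochondrial proteins had a median of -0.12, with 30 below 0, and the 6 of cytosolic proteins a median of -0.11, with 5 below 0. The difference of these medians was -0.01, and whether the compartments differ was not tested.

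Related genes of a pathway were compared in pairs. Of 6 pairs with both genes measured, 3 differed by over 0.15. The share of all gene pairs with such a gap was not computed. The differences of all genes had a standard deviation of 0.12, but this is the spread of single genes and not of gaps between genes. It is therefore no yardstick for the gaps. Whether the gaps within pairs exceed those between unrelated genes was not tested. Nubp1 was 0.21 above Nubp2, Alas1 0.18 below Alas2, and Coq10a 0.15 above Coq10b. Lipt1 was 0.12 above Lipt2. Isca1 and Isca2 differed by 0.04 and Adck3 and Adck4 by 0.02. Alas2 and Lipt1 had the lowest signals of the 38. The RMA scale compresses differences at low signal, and its part in the gaps within pairs was not tested.

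**Figure D3:**
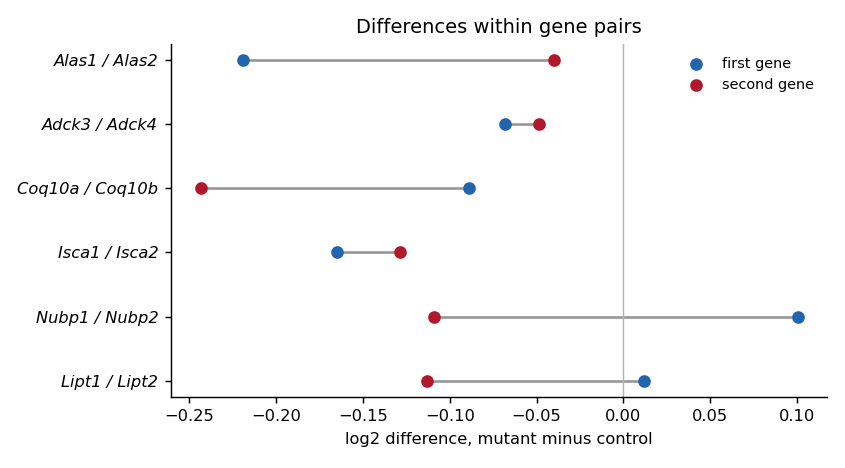
Each line joins the log2 differences, mutant minus control (horizontal axis), of 2 related genes, the first named in blue and the second in red. Nubp1 and Nubp2 lie on opposite sides of 0, 0.21 apart, while Adck3 and Adck4 lie 0.02 apart.

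Genes that supply or extend these pathways were examined next. Of 13 measured genes of heme transport, its regulation and breakdown, 8 were below 0, against 50.2% of all genes, with a median of -0.09. The other 5 were above 0, by up to 0.11, and none of the 13 was past a ratio of 0.8 or 1.2. Slc25a37 (mitoferrin-1), a mitochondrial iron importer, had log2 signals of 7.73 and 7.41, a ratio of 0.801. Tmem14c, a porphyrin transporter, had 8.18 and 7.91, a ratio of 0.828. Slc25a39, a glutathione carrier linked to heme synthesis, had 9.31 and 9.08, a ratio of 0.856. Of heme A synthesis, which serves complex IV, Cox10 had 9.08 and 8.92 and Cox15 8.46 and 8.40, ratios of 0.896 and 0.959.

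Of 6 further genes of mitochondrial iron-sulfur assembly all were below 0, with a median of -0.12. Ndufab1 is the acyl carrier protein on which the precursor of lipoate is made, and also binds the assembly complex. The brighter of its 2 probe sets had log2 signals of 10.39 and 10.03, a ratio of 0.779. The other is not given here. Hspa9, the chaperone partner of Hscb, and Abcb8, an inner membrane transporter, had differences of -0.16 each. Of 7 further genes of cytosolic assembly, 5 were below 0, against 50.2% of all genes, with a median of -0.06. Their spread was wider than that of the 38. Glrx3, a cytosolic glutaredoxin, had 8.57 and 8.21, a ratio of 0.780, and Narfl (Ciao3) 8.28 and 7.95, a ratio of 0.796. A ratio of 0.8 or less, as for Ndufab1, Glrx3 and Narfl, was reached by 0.652% of all genes. Ciapin1, an electron carrier of the cytosolic machinery, had a difference of -0.24, and Mms19, the adaptor of the targeting complex, one of 0.21.

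The isoprenoid precursors of the coenzyme Q tail are shared with cholesterol synthesis. Of their genes, 4 of 7 were below 0, against 50.2% of all genes, and the median was -0.0023. Single genes were far from it, with Idi1 at 6.72 and 6.27, a ratio of 0.733, Hmgcs1 at a difference of -0.27 and Mvd at 0.20. Idi1 was the 1 gene of the 7 at a ratio of 0.8 or less, which 0.652% of all genes reached.

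Proteins that use these cofactors were examined as well. The genes of mitochondrial iron-sulfur proteins and of lipoylated proteins had lower medians than the genes of synthesis, a difference that was not tested. They were also brighter, with mean control log2 signals of 11.41 and 9.41, against 8.88 for the 38 genes. The RMA scale compresses differences at low signal, and its part in this comparison was not tested. All 9 measured mitochondrial iron-sulfur proteins were below 0, with a median of -0.25, and 4 of 9 were at or under a ratio of 0.8, which 0.652% of all genes were. They were Uqcrfs1, the Rieske protein (9.81 and 9.32), Sdhb of complex II (11.41 and 11.00), and Ndufv1 (11.38 and 11.00) and Ndufs1 (11.18 and 10.84) of complex I, with differences of -0.49, -0.42, -0.38 and -0.34. All 5 genes of lipoylated proteins were below 0, with a median of -0.20. Of these, Dlat, of pyruvate dehydrogenase, had 10.80 and 10.40 (ratio 0.757), Dlst, of 2-oxoglutarate dehydrogenase, 10.36 and 10.09 (0.826), and Pdhx 8.74 and 8.54 (0.868).

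The 14 cytosolic and nuclear iron-sulfur proteins had a median of -0.03, with 9 below 0, against 50.2% of all genes. None was past a ratio of 0.8 or 1.2. Rsad2, an interferon-induced protein, was at -0.25, Nthl1, a DNA repair glycosylase, at -0.17 and Aco1, the iron regulatory protein, at -0.17. Heme proteins were mixed, with 7 of 10 below 0, against the same 50.2%, and a median of -0.08. Of the 10, 2 were at a ratio of 0.8 or less, which 0.652% of all genes reached. Cyc1 of complex III (11.59 and 11.20) and Sdhd of complex II (10.92 and 10.55) had ratios of 0.765 and 0.777, and Sdhc a ratio of 0.865, whereas Mb, the myoglobin of muscle, was at -0.06 and Cat, the catalase, at -0.01.

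Among 7 dehydrogenases that reduce coenzyme Q, 6 were below 0, against 50.2% of all genes, with a median of -0.08. Sdha and Etfdh were both at -0.25, Chdh at -0.16. For iron handling, 7 of 11 genes were below 0, against 50.2% of all genes, and the median was -0.02. Tfrc, the transferrin receptor that brings iron into the cell, had log2 signals of 10.17 and 9.78, a ratio of 0.764, while the ferritin genes Fth1 and Ftl1, which store iron, had differences of 0.02 and 0.05. Tfrc was the 1 gene of the 11 at a ratio of 0.8 or less, which 0.652% of all genes reached. Slc40a1, the iron exporter, was at -0.15. Aco1 and Etfdh each belong to a pair of these lists.

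**Figure D4:**
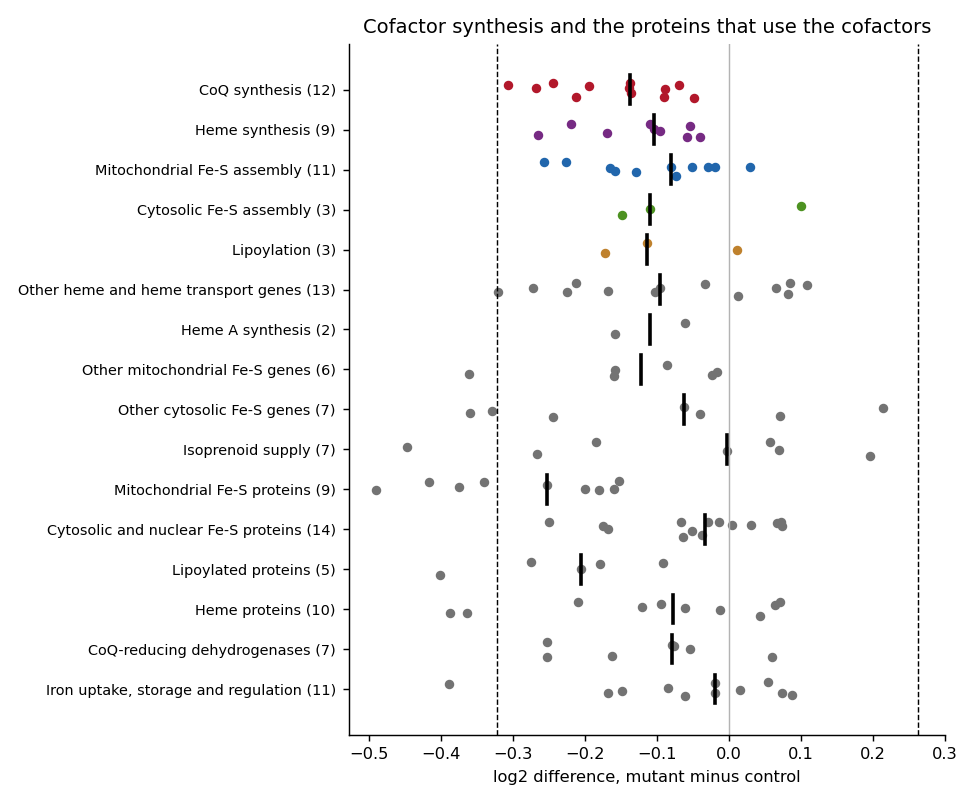
Each point is the log2 difference, mutant minus control (horizontal axis), of 1 gene of the lists named on the vertical axis, with the number of genes in brackets, black bars at the medians and dashed lines at ratios of 0.8 and 1.2. The coloured synthesis pathways have medians of -0.14 to -0.08, and mitochondrial iron-sulfur proteins and lipoylated proteins have medians of -0.25 and -0.20.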

How the data were processed

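Biotinylated cDNA made from 150 ng RNA was hybridized by the authors to Mouse Gene 1.0 ST arrays (Affymetrix), which were read with Command Console 3.2. They deposited log2 signals per probe set, computed by RMA in Expression Console 1.1. RMA equalizes the signal distributions of the arrays, so that a shift of all genes would not be seen, and it compresses differences of dim probe sets. Detection above background was not assessed. For the genome build of the array design, none is named in the sources used here.

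From the deposited log2 values, the difference between the 2 arrays was computed per gene. Of 35556 probe sets, 21789 had 1 symbol in the platform annotation (21698 matched to RefSeq by Entrez ID), 1621 had several and 12146 were not listed. Each of 19936 nuclear genes was represented by its probe set of highest mean signal. Thresholds followed the methods of the study (ratios of 0.8 and 1.2), with 1/1.2 beside them. Of the 41 genes, Adck3 and Adck4 are Coq8a and Coq8b in RefSeq.

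All 38 measured members are named, and of other lists (cell type markers aside) the 3 genes of largest difference and those past a ratio. Mms19, Mb, Cat, Fth1 and Ftl1 are named besides. They were chosen, like the named macrophage and connective tissue markers, after their values were seen. Members, lists and thresholds were chosen with earlier results of these data known. The alternatives are given in the closing section. The calculation of list medians was checked on simulated data with known shifts, which is no test between the genotypes. Promoter sequences are from RefSeq, GRCm38.p6. Python 3.11.15, pandas 2.3.3, numpy 2.4.6, statsmodels 0.14.6 and matplotlib 3.10.9 were used. Precision is limited by the number of arrays.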

Additional observations from a re-analysis of the deposited data

How the results depend on the processing

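No paired analysis was possible because each genotype has 1 array. The values were recomputed with probe sets averaged per gene, with probe sets of several genes, with mean log2 signals of at least 6 or 7, after subtraction of a loess curve (span 0.3) or of the median difference, and, chosen after seeing the data, with the probe set that stands by number on the chromosome of its gene. The median of all 38 genes stayed negative under each of these, and the number below 0 lay between 32 of 33 (signal of 7 or more) and 36 of 39 (probe sets of several genes) or 36 of 38 (loess). A value is called moved here at a change of 0.05 or more. The difference of mitochondrial and cytosolic iron-sulfur assembly changed sign with the mean of probe sets (-0.0041) and with the chromosome's probe set (-0.020), since Iscu went to -0.15 and -0.22. Iba57 went to -0.11 with the mean of probe sets, and Lipt1 to -0.0073 with the loess curve. The median of isoprenoid supply went to -0.064 at a signal of 7 or more. The number of genes lowered went from 0 to 3 with a ratio of 1/1.2 in place of 0.8. Of the other values of single genes, none changed sign or moved under these alternatives.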
